A study of Mus musculus with 16 samples.

Results

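The genes described here copy DNA in S phase or set the start of that phase. They were 44 genes listed by name in 8 role groups, and earlier results of these data were known when they were listed. The groups were the MCM2-7 helicase, origin licensing and firing, the sliding clamp and its loader, and the polymerases and primase. The others were single-strand binding and Okazaki fragment processing, nucleotide supply, G1/S control and checkpoint, and chromatin and histone supply. Of the 44, 43 had a probe set annotated to that gene alone, among 13674 genes with such a probe set on the 2 chips. Tyms was only on probe sets shared with Tyms-ps and has no value here. Each gene was represented by 1 probe set, taken from chip A where it had one, otherwise from chip B, and the brightest on average where there were several. The level filter kept 39 of these genes, and the counts below are over those 39. Below the filter were Mcm6, with signals between 4.4 and 26.1 over the 8 arrays, Dbf4, between 4.1 and 29.5, Dut, between 19.6 and 111.1, and Ccne2, between 41.7 and 106.3. More than 1 probe set was available for 14 genes. For Mcm5, Orc2, Cdc7, Rfc5, Pold1, Rpa1, Lig1, Rrm1 and Tk1 the other probe set was below the filter and was not fitted.

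A cell prepares its origins in G1, when ORC, CDC6 and CDT1 load the MCM2-7 helicase onto DNA, and starts them in S phase, when CDC7 and the cyclin-dependent kinases bring in CDC45 and the helicase begins to unwind. Polymerase alpha with primase lays down primers, the RFC loader places the PCNA clamp, polymerases delta and epsilon extend, and FEN1 and LIG1 finish the lagging strand. Many of these genes are transcribed together at the G1/S boundary under E2F factors, and endothelial cells usually leave the cycle when they form a closed layer, a state known as contact inhibition.

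The cells were mouse endothelial cells derived from embryonic stem cells with both copies of the VE-cadherin gene (VEC, Cdh5) carrying a null mutation. VE-cadherin is the cadherin of endothelial adherens junctions. The labels divide the samples into VEC-null and VEC-positive cells, each taken sparse and confluent, and all 4 conditions shared 36 h of starvation in MCDB 131 medium with 1% BSA before RNA was taken. The labels give neither the origin of VEC in the VEC-positive cells nor whether a line was 1 clone. Each condition was 1 cRNA sample made from 15 µg of total RNA and hybridised to 2 copies of chip A (MG_U74Av2) and 2 of chip B (MG_U74Bv2), 16 arrays in all. All p-values below therefore measure the spread between hybridisations of the same cRNA, which is technical, and not the spread between cultures.

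Upstream sequences of 5 of the genes show the words searched for in their promoters. The search covered the RefSeq promoters of mouse assembly GRCm38.p6, from 250 bases before to 50 after each start, for 5 E2F-type words on both strands, TTTCGCGC, TTTGGCGC, TTTCCCGC, TTCCCGCC and TTGGCGCC. Words that overlapped were each counted. Pola1, Orc1, Cdc6 and Mcm5 are shown because, among genes with a word before the start, their responses to density differed most between the lines. Slbp is shown because its difference of 1.45 passed too and its promoter holds none of the words. These 5 were picked after their values were seen. Each line gives the 250 bases before the start, 5′ to 3′ on the gene's strand, with the words in capitals, at chrX:93632156-93632405, minus strand for Pola1, chr4:108579204-108579453, plus strand for Orc1, chr11:98907901-98908150, plus strand for Cdc6, chr8:75109259-75109508, plus strand for Mcm5 and chr5:33652575-33652824, minus strand for Slbp.
Pola1: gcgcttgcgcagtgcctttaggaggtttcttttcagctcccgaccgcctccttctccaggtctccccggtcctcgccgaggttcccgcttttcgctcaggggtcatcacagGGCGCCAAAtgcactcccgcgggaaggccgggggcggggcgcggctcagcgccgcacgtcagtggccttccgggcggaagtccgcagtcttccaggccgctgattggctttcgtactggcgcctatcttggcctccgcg
Orc1: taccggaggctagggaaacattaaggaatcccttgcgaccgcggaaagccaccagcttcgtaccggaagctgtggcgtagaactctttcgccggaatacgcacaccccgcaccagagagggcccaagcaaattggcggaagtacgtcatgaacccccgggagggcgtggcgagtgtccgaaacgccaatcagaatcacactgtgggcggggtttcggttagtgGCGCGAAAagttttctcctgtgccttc
Cdc6: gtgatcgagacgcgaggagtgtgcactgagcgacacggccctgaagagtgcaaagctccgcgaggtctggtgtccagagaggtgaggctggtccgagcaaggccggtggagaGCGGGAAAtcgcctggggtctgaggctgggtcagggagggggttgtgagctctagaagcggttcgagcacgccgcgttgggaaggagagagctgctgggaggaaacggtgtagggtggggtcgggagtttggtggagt
Mcm5: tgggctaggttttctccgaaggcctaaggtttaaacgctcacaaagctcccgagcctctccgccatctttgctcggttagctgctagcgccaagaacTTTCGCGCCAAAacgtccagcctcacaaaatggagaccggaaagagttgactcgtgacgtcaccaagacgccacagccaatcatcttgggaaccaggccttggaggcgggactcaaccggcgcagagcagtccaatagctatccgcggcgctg
Slbp: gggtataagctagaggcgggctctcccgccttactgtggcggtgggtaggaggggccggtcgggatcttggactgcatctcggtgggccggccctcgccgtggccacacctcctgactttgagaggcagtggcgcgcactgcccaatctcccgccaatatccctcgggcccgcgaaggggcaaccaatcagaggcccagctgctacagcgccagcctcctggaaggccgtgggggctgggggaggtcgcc

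The Pola1 words began at -139 and -138 from the start and overlapped, and those of Mcm5 began at -153 and -149 and overlapped too. The Orc1 word began at -27 and the Cdc6 word at -138. The table held 47 promoters for 39 of the 44 genes, and Ccne2, Mcm4, Pole, Prim2 and Rfc2 were without one. At least 1 word was in 21 of the 47, or 44.7%, against 4.04% of all 32851 promoters and 7.32% of the 9635 promoters of genes kept by the level filter. CCAAT, searched on both strands, was in 53.2% of the 47 and in 37.4% of all promoters. Among the genes whose density response differed between the lines, 13 of 20 with a promoter had a word, and among the other kept genes 5 of 15 did. Rfc3 had words at -10 and 0, and its density responses were 0.46 in VEC-null and 0.36 in VEC-positive cells. A match describes these letters only and is not a binding site.

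Signals are MAS5 values on a scale with a target of 500 per array, changes are differences of log2(signal + 50) with their standard error (SE), and a fold is on that scale, which understates changes of dim genes. A gene passed where limma's adjusted p was below 0.05 and the change was at least 1, and "on p alone" means an adjusted p below 0.05 whatever the size of the change. "Rose" and "fell" are kept for genes that passed. Array copies of a group correlated at r from 0.951 to 0.989. The 3′ to 5′ signal ratio of the Gapdh controls lay between 0.903 and 1.226 and that of the actin controls between 1.109 and 1.335. Endothelial markers were present, with all 13 measured kept by the level filter, while 26 of the 36 measured markers of embryonic stem, smooth muscle, blood and epithelial cells were below it. Of the 10 kept, 5 passed as lower and 0 as higher in the difference of density responses tested below (Klf2, Pdgfrb, Cd68, Cd14 and Krt19), with values from -4.12 to -1.06, and their part in the results was not tested. The summed epithelial signal of sparse VEC-positive cells was 1412, where the remaining 3 conditions had 549.6 to 673. Krt19 read 862 and 948 on those sparse VEC-positive arrays and 3.3 to 7.0 on the other 6, while Krt8, Krt18 and Epcam were below the level filter. The summed blood signal was 1508 in confluent VEC-null cells and between 744 and 981 in the others. The smooth muscle and fibroblast sum lay between 973 and 1122 and the embryonic stem sum between 567 and 998. Klf2 was counted as an embryonic stem marker. Of the 10 measured on that list 8, among them Pou5f1, Nanog and Sox2, were below the level filter, so the sum alone does not show such cells. The summed endothelial signal in VEC-null cells was 17308 when sparse and 65667 when confluent, and in VEC-positive cells 28714.6 and 68852. It was higher on confluence in both lines, and its part in the results below was not tested. Cdh5 itself went from 1255 and 1282 to 2707 and 2509 on confluence in the arrays labelled VEC-null and from 1464 and 1334 to 2607 and 2526 in those labelled VEC-positive, with line differences of 0.13 in sparse and -0.02 in confluent cells, neither of which passed. Where its probe set lies relative to the disrupted part of the gene was not analysed here, and the signal therefore checks no label.

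The difference between the density responses was the comparison in which most of these genes passed. On confluence, the 39 genes had a median change of -0.64 in VEC-null cells and 0.50 in VEC-positive cells, while the median over all 14301 probe sets kept was -0.002 and 0.02. The difference between these responses, VEC-positive minus VEC-null, had a median of 1.04 and ranged from -0.16 to 1.81. It passed as higher for 21 of the 39 genes, Mcm2, Mcm3, Mcm4, Mcm5, Mcm7, Orc1, Cdc6, Cdt1, Cdc45, Cdc7, Rfc5, Pola1, Prim1, Fen1, Lig1, Rrm1, Rrm2, Chek1, Uhrf1, Slbp and Chaf1b, and as lower for 0. Of all probe sets tested, 5.89% passed as higher and 6.31% as lower in this comparison. On p alone, 28 genes were higher and 0 were lower, against 14.5% and 14% of all probe sets. At an unadjusted p below 0.05, limma gave 33 higher and 0 lower. The share of all probe sets at that limit was not computed, here or for the unadjusted counts below.

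**Figure D1:**
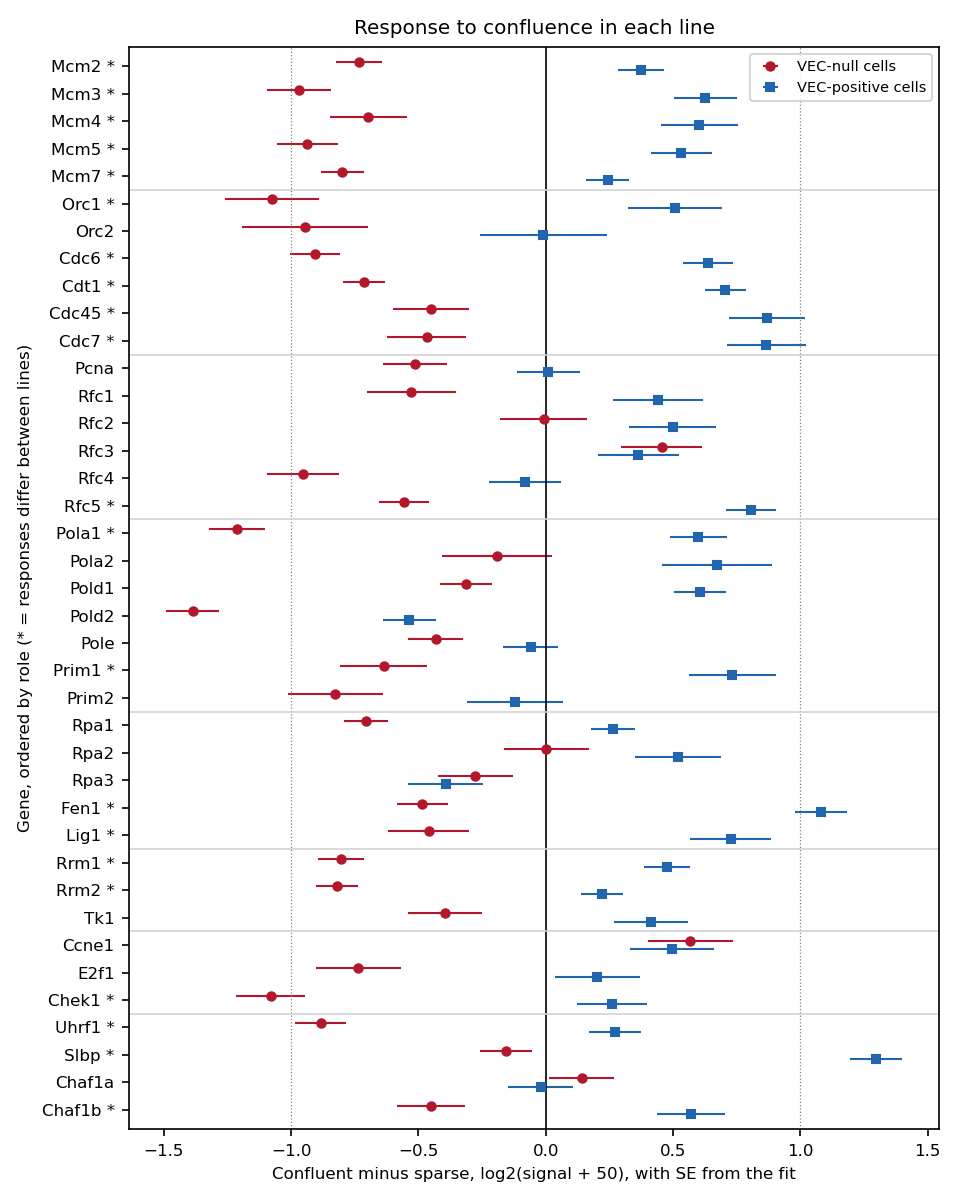
Change on confluence, confluent minus sparse on the log2(signal + 50) scale, for each of the 39 genes in VEC-null cells (red circles) and VEC-positive cells (blue squares), with the SE from the fit as bars, dotted lines at a change of 1 in either direction and an asterisk where the difference between the responses passed. The red points lie below 0 for 35 genes and the blue points above 0 for 32.

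Within VEC-null cells, 4 genes fell on confluence, Orc1, Pola1, Pold2 and Chek1, and 0 rose, where 7.4% of all probe sets fell and 9.08% rose. On p alone, 31 of the 39 were lower and 2 were higher (Rfc3 and Ccne1), against 23.5% and 23.1% of all probe sets. Within VEC-positive cells, 2 genes rose on confluence, Fen1 and Slbp, and 0 fell, where 8.13% of all probe sets rose and 7.21% fell. The counts that passed were thus near or below the background in both lines, and the counts on p alone were not: 27 of the 39 were higher in VEC-positive cells and 1 (Pold2) was lower, against 24.5% and 23%. At an unadjusted p below 0.05, limma gave 2 higher and 31 lower in VEC-null cells and 29 higher and 2 lower in VEC-positive cells. No share of all probe sets was computed for these unadjusted counts. The 2 density comparisons share no array. Lower in VEC-null and higher in VEC-positive cells, each on p alone, were 22 of the 39 genes and 2.08% of all probe sets.

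Sparse VEC-null cells had the highest level for most of these genes. Their mean signal was the highest of the 4 conditions for 31 of the 39, against 28.9% of all probe sets, and both of their arrays lay above all 6 others for 27, against 18.6%. Orc2 is in both counts, but it was kept by the level filter only through sparse VEC-null cells (mean 281.95, its other means 126.0 to 158.15, filter 160.3). Its place there was therefore fixed by the filter. It is also among the genes lower on p alone in VEC-null cells on confluence and in sparse VEC-positive cells. Sparse VEC-positive cells had the lowest mean for 23, against 25.6%, and both of their arrays lay below all others for 17, against 13%. Confluent VEC-positive arrays were above all others for Prim1, Rpa2 and Lig1, against 15.1% of all probe sets, and below them for Rpa3, against 15%. Confluent VEC-null arrays were above all others for Rfc3 and Chaf1a, against 13.4%, and below them for 6 genes, Mcm5, Prim1, Rpa1, Rrm2, E2f1 and Uhrf1, against 10.3%. Relative to each gene's mean over the 8 arrays, the median of the 39 was 0.49 and 0.47 in sparse VEC-null, -0.09 and -0.23 in confluent VEC-null, -0.37 and -0.34 in sparse VEC-positive, and 0.07 and 0.01 in confluent VEC-positive arrays. Over all probe sets kept, this median stayed between -0.02 and 0.01. In these bulk samples, fewer cells in S phase and less of these RNAs per cell cannot be told apart.

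**Figure D2:**
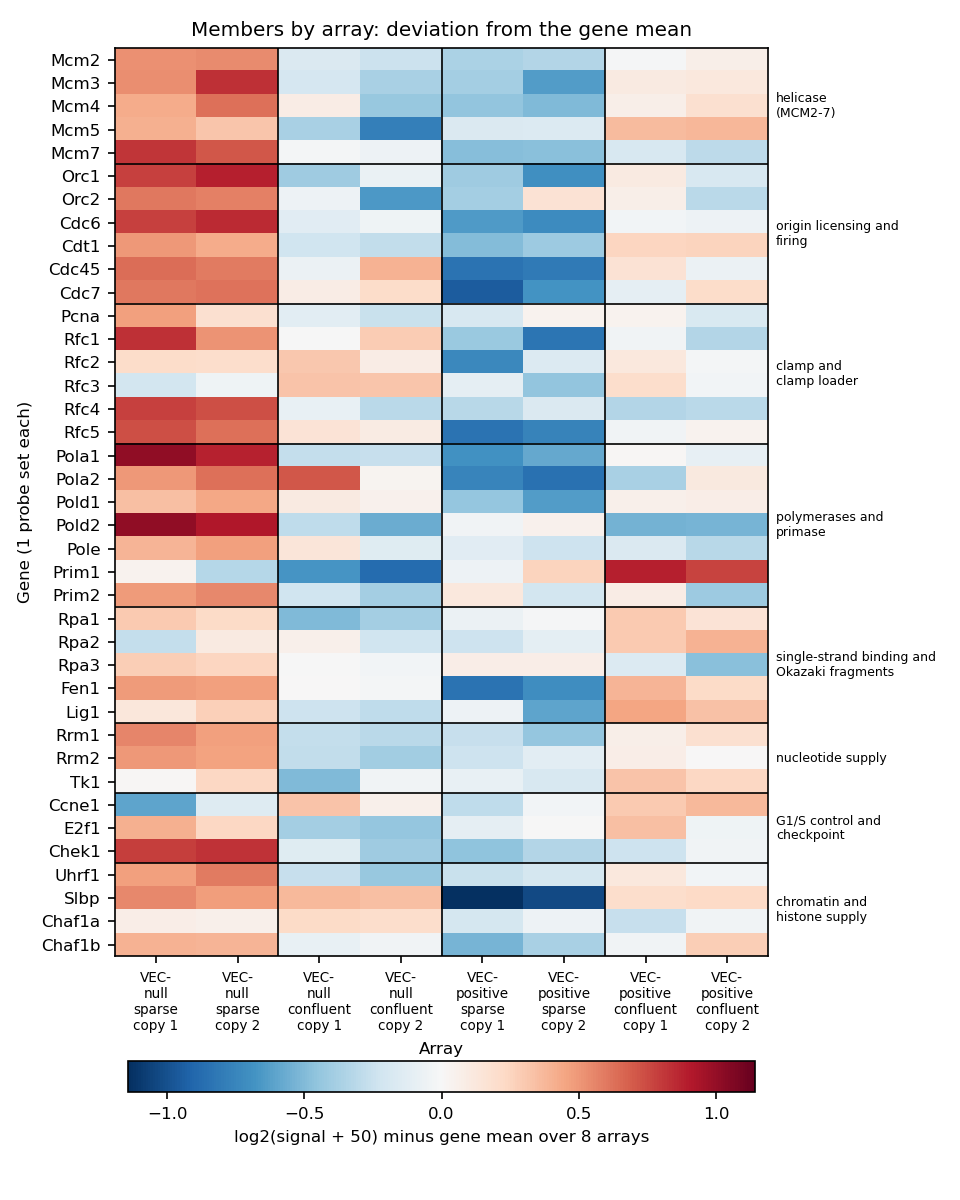
Heat map of the 39 genes (rows, by role group) over the 8 arrays of a chip (columns, by condition and array copy), coloured by log2(signal + 50) minus the gene's mean over the arrays. Sparse VEC-null arrays are mostly red, with a median of 0.49 and 0.47, and sparse VEC-positive arrays mostly blue, with -0.37 and -0.34.

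In sparse cells 14 of the 39 genes were lower in VEC-positive than in VEC-null cells and 0 were higher, against 4.27% and 5.43% of all probe sets. These 14 were Mcm3, Mcm4, Mcm7, Orc1, Cdc6, Cdc45, Cdc7, Rfc1, Rfc5, Pola1, Pola2, Fen1, Chek1 and Slbp, and the median of the 39 was -0.87, where that of all probe sets was -0.03. On p alone 31 were lower, against 20.5%. In confluent cells 1 gene, Prim1, was higher in VEC-positive cells and 0 were lower, against 4.29% and 3.62%, and the median was 0.15. On p alone 12 were higher and 0 lower, against 16.2% and 16.8%. At an unadjusted p below 0.05, limma gave 0 genes higher and 32 lower in sparse cells, and 14 higher and 4 lower in confluent cells. The matching shares of all probe sets were not computed. The test of whether the line difference depends on density is the same as the test of the density responses above. The sparse comparison shares its VEC-null arrays with the density comparison in VEC-null cells, so the high signals on those arrays enter both.

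The helicase genes encode subunits of the ring that unwinds DNA ahead of the fork. All 5 that were kept differed between the lines in their density response, by 1.04 to 1.60, and 3 of the 5 were lower in sparse VEC-positive than in sparse VEC-null cells. Mcm2 went from 1800.2 and 1825 to 1102 and 1038 on confluence in VEC-null cells and from 951 and 972 to 1224 and 1299 in VEC-positive cells. Mcm3 went from 3361 and 4161 to 2012 and 1769.7 on confluence in VEC-null cells and from 1754 and 1464 to 2487 and 2518 in VEC-positive cells. Mcm4 went from 2529.6 and 2917 to 1991 and 1378 on confluence in VEC-null cells and from 1357 and 1301 to 1969 and 2125 in VEC-positive cells. In these 3 genes both sparse VEC-null arrays stood above the other 6 and both sparse VEC-positive arrays below them, with the confluent arrays of both lines in between. Mcm7 went from 3808 and 3544 to 2114 and 2068 on confluence in VEC-null cells and from 1515 and 1530.1 to 1892 and 1733 in VEC-positive cells. Its order was the same, but its VEC-positive response was the smallest of the 5, at 0.24 (SE 0.09, adjusted p = 0.04). Mcm5 went from 4569.7 and 4307 to 2654 and 1982 on confluence in VEC-null cells and from 3065 and 3079 to 4445 and 4483 in VEC-positive cells. Here the low group was confluent VEC-null, and the sparse VEC-null and confluent VEC-positive arrays overlapped. A second, dimmer Mcm5 probe set was below the level filter, and its highest mean, 88.35, was in confluent VEC-null cells. The density responses differed by 1.60 (SE 0.18, adjusted p = 0.00022) for Mcm3, 1.47 (SE 0.17, adjusted p = 0.00027) for Mcm5 and 1.04 (SE 0.12, adjusted p = 0.00028) for Mcm7. A second Mcm3 probe set gave 1.21 for this difference and also passed. In sparse cells the lines differed by -1.24 (SE 0.09, adjusted p = 6.4e-06) for Mcm7, -1.20 (SE 0.12, adjusted p = 7.3e-05) for Mcm3 and -1.0045 (SE 0.15, adjusted p = 0.00063) for Mcm4. The Mcm4 call in sparse cells was lost without copy 2 of the sparse VEC-null arrays (-0.90) or copy 2 of the sparse VEC-positive arrays (-0.98). The Mcm7 call on the difference of responses was lost without copy 1 of the sparse VEC-null (0.99) or of the confluent VEC-positive arrays (0.98).

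Of the origin licensing and firing genes, 5 of 6 kept differed in their density response, and 4 were lower in sparse VEC-positive than in sparse VEC-null cells. Orc1, the largest subunit of the origin recognition complex, went from 378 and 412 to 138 and 187 on confluence in VEC-null cells and from 139 and 104 to 218 and 169.7 in VEC-positive cells. It fell in VEC-null cells by 1.07 on the log2 scale, with SE 0.18 and an adjusted p of 0.00097, and in VEC-positive cells the change was 0.51 (SE 0.18, adjusted p = 0.045). Its sparse VEC-null arrays were above all others, and the other 3 conditions overlapped. Without copy 1 of the confluent VEC-null arrays the VEC-null change was -0.91 and no longer passed. Cdc6, the loader of the helicase, went from 1535 and 1625 to 794 and 847 on confluence in VEC-null cells and from 543 and 511 to 858 and 837 in VEC-positive cells. The confluent arrays of the lines lay between 794 and 858, the sparse VEC-null arrays above them and the sparse VEC-positive arrays below. Its line difference was -1.50 (SE 0.10, adjusted p = 4.8e-06) in sparse and 0.05 (SE 0.10, adjusted p = 0.76) in confluent cells. Cdt1, the partner of CDC6 in loading, went from 2821 and 2679.8 to 1686 and 1628 on confluence in VEC-null cells and from 1396 and 1472 to 2365 and 2373 in VEC-positive cells. The 4 conditions of Cdt1 did not overlap, and the difference of its responses was 1.42 (SE 0.12, adjusted p = 5.2e-05). A second Cdt1 probe set gave 1.26 and passed as well.

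The 2 firing factors kept by the filter had larger changes on confluence in VEC-positive than in VEC-null cells, a difference in size that was not tested. Cdc45, which joins the helicase as it starts, went from 1429 and 1387 to 859 and 1201 on confluence in VEC-null cells and from 481 and 496 to 1015 and 858 in VEC-positive cells. Cdc7, the kinase that triggers firing, went from 495 and 502 to 329 and 365 on confluence in VEC-null cells and from 136 and 174 to 285 and 363 in VEC-positive cells. For both genes the sparse VEC-positive arrays were below all others, and the confluent arrays of the 2 lines overlapped. Their changes on confluence in VEC-positive cells were 0.87 (SE 0.15, adjusted p = 0.001) for Cdc45 and 0.87 (SE 0.16, adjusted p = 0.0014) for Cdc7, under the limit of 1. Leaving out copy 1 of the confluent or copy 2 of the sparse VEC-positive arrays took the Cdc7 change to 1.02 or 1.00, and it then passed. Orc2 had a VEC-null change of -0.95 (SE 0.25, adjusted p = 0.011), and its responses differed by 0.94 (SE 0.35, adjusted p = 0.074), which did not pass. Without copy 1 of the confluent VEC-null or copy 2 of the sparse VEC-positive arrays, the Orc2 difference was 1.23 or 1.21 and passed. Dbf4, the activator of CDC7, was below the level filter.

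The clamp and its loader were mixed. Of 6 genes kept, Rfc5 was the 1 whose density responses differed, and Rfc1 and Rfc5 were lower in sparse VEC-positive than in sparse VEC-null cells. Pcna, the clamp, went from 3945 and 3222 to 2600.1 and 2369.5 on confluence in VEC-null cells and from 2489.9 and 2911 to 2924 and 2516 in VEC-positive cells. Its sparse VEC-null arrays stood above all others and the other 3 conditions overlapped, with a VEC-null change of -0.51 (SE 0.12, adjusted p = 0.007) on p alone. Rfc5, a small loader subunit, went from 1661 and 1531 to 1090.3 and 1044 on confluence in VEC-null cells and from 519.7 and 553 to 947 and 1001 in VEC-positive cells. None of its 4 conditions overlapped, and the difference of responses was 1.36 (SE 0.14, adjusted p = 0.00015). A second Rfc5 probe set was below the level filter, with all its arrays between 61.3 and 100.2. Rfc1, the large loader subunit, went from 1707 and 1357 to 936 and 1156 on confluence in VEC-null cells and from 686 and 505 to 909.5 and 734 in VEC-positive cells. Its line difference in sparse cells was -1.30 (SE 0.18, adjusted p = 0.00035). A second Rfc1 probe set, dimmer than the first, rose by 1.0001 on confluence in VEC-null cells, where the first gave -0.53. Its difference of responses was -0.96 (adjusted p = 0.052, limma) where the first gave 0.97, so the 2 probe sets disagree in direction there. Its line difference in confluent cells passed at -1.32, in the same direction as the -0.33 of the first. In sparse cells, where the first passed, the second gave -0.36 (adjusted p = 0.25, limma) and did not pass. Leaving out any 1 of copy 2 of the confluent VEC-null, copy 2 of the sparse VEC-null, copy 2 of the confluent VEC-positive or copy 1 of the sparse VEC-positive arrays took the difference of responses of the first Rfc1 probe set from 0.97 to between 1.11 and 1.17, and it then passed. Rfc4 fell just short in sparse cells, at -0.997 (SE 0.14, adjusted p = 0.00046), and passed without copy 2 of the sparse VEC-null (-1.02) or of the sparse VEC-positive arrays (-1.07). Rfc2 and Rfc3 had differences of responses of 0.51 (SE 0.24, adjusted p = 0.15) and -0.09 (SE 0.22, adjusted p = 0.79), neither of which passed.

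**Figure D3:**
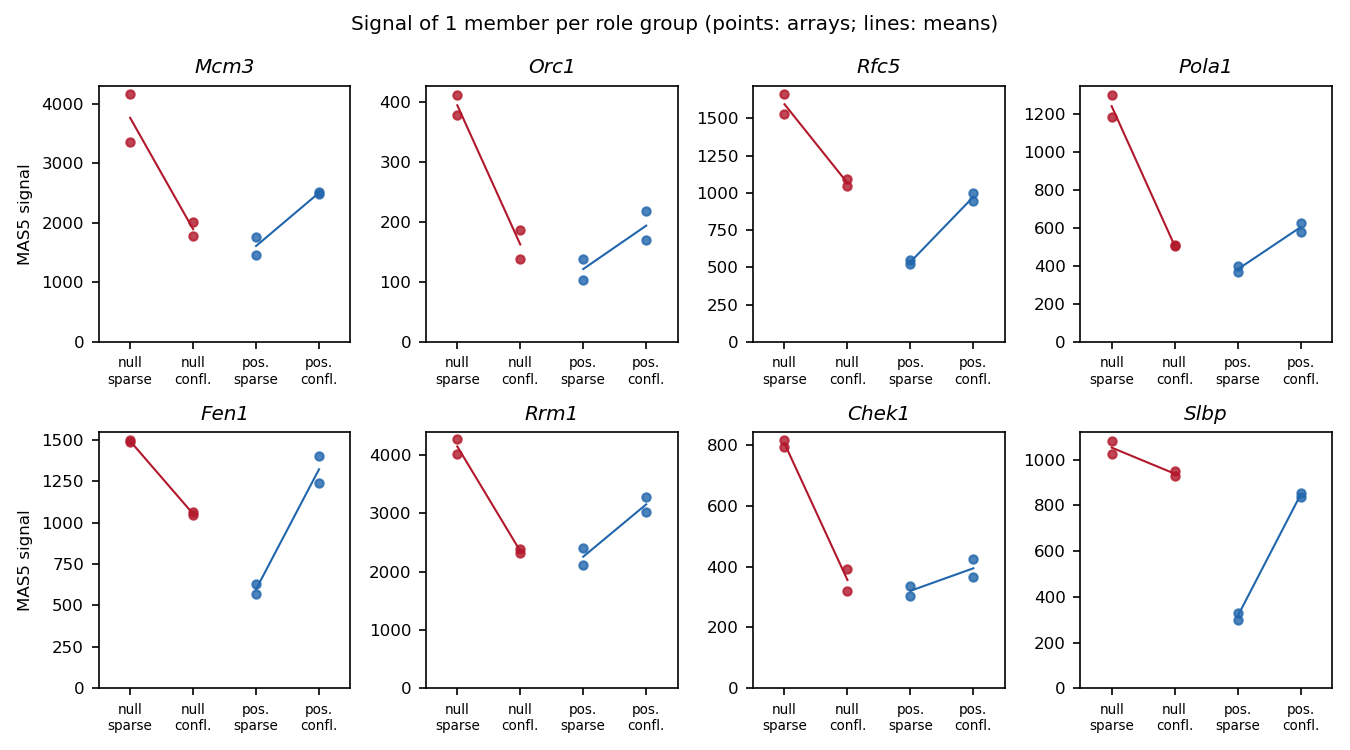
MAS5 signal (y axis, linear, from 0) of the gene with the largest difference of density responses in each of the 8 role groups, in the 4 conditions (x axis), with 1 point per array copy and lines joining the means of sparse and confluent cells of a line (red VEC-null, blue VEC-positive). The red lines slope down and the blue lines slope up in all 8 panels, steeply for Pola1 in VEC-null cells and for Slbp and Fen1 in VEC-positive cells. These genes were picked for that difference, and not all genes of their groups share it. The means of Rfc3 and Ccne1 were higher on confluence in both lines, and those of Pold2 and Rpa3 lower in both.

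Among the polymerases and primase, Pola1 had the largest difference of responses and Prim1 its highest signals in confluent VEC-positive cells. Pola1, the catalytic subunit of polymerase alpha, went from 1303 and 1184 to 506 and 509 on confluence in VEC-null cells and from 367 and 398 to 629.7 and 580 in VEC-positive cells. Its sparse VEC-null arrays were above and its sparse VEC-positive arrays below all others. It fell in VEC-null cells by 1.21 on the log2 scale (SE 0.11, adjusted p = 1.5e-05), the change in VEC-positive cells was 0.60 (SE 0.11, adjusted p = 0.0016), and the difference was 1.81 (SE 0.16, adjusted p = 6.6e-05), or 3.51-fold. Prim1, the catalytic subunit of primase, went from 338 and 251 to 186 and 155 on confluence in VEC-null cells and from 311 and 399 to 647 and 593 in VEC-positive cells. Confluent VEC-positive arrays were above all others and confluent VEC-null arrays below, and the line difference in confluent cells was 1.61 (SE 0.17, adjusted p = 0.00011). Prim1 lies on chromosome 10, where the median of 631 probe sets was 0.44 in the same comparison.

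Pola2, the regulatory subunit of polymerase alpha, went from 1113 and 1232 to 1304 and 795 on confluence in VEC-null cells and from 439.9 and 409 to 590.2 and 845 in VEC-positive cells. The confluent VEC-null copies were far apart, and the call was in sparse cells, where the line difference was -1.36 (SE 0.22, adjusted p = 0.00086). Without copy 1 of the confluent VEC-null or of the confluent VEC-positive arrays its difference of responses, 0.87, became 1.21 or 1.11 and passed. A second, dimmer Pola2 probe set gave a line difference of -0.50 (SE 0.55, adjusted p = 0.51) in sparse cells. Its difference of responses was 0.51 (SE 0.78, adjusted p = 0.67), and neither passed. Pold2, the accessory subunit of polymerase delta, went from 3912 and 3656 to 1560.4 and 1283 on confluence in VEC-null cells and from 1862 and 1982 to 1305 and 1312 in VEC-positive cells. It was lower on confluence in both lines, by -1.39 (SE 0.10, adjusted p = 4e-06) in VEC-null and -0.54 (SE 0.10, adjusted p = 0.0021) in VEC-positive cells, the latter on p alone. Its line difference in sparse cells, -0.96, became -1.007 without copy 2 of the sparse VEC-null and -1.003 without copy 2 of the sparse VEC-positive arrays, and then passed. Pole, the catalytic subunit of polymerase epsilon and the 1 gene here read from chip B, went from 4299 and 4551 to 3597 and 2960.1 on confluence in VEC-null cells and from 2983 and 2762 to 2903 and 2608 in VEC-positive cells. Its sparse VEC-null arrays were above all others, and the remaining 6 arrays lay between 2608 and 3597. Pold1, the catalytic subunit of polymerase delta, had a difference of responses of 0.92 (SE 0.14, adjusted p = 0.0015), on p alone, and without copy 1 of the sparse VEC-positive arrays that difference (1.01) and its line difference in sparse cells (-1.02) passed. The primase subunit Prim2 had 0.71 (SE 0.27, adjusted p = 0.075) and did not pass.

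Of the 5 kept genes that coat single strands or process Okazaki fragments, Fen1 and Lig1 passed in the difference of responses. Fen1, the flap nuclease that trims Okazaki fragments, went from 1498 and 1487 to 1061 and 1044 on confluence in VEC-null cells and from 569 and 627 to 1405 and 1239 in VEC-positive cells. It rose in VEC-positive cells by 1.08 (SE 0.10, adjusted p = 1.9e-05), and its VEC-null change was -0.48 (SE 0.10, adjusted p = 0.0031) on p alone. None of its 4 conditions overlapped, with sparse VEC-null highest, then confluent VEC-positive, confluent VEC-null and sparse VEC-positive. Without copy 1 of the confluent VEC-positive arrays the rise was 0.99 and fell short of the limit. Lig1, the ligase that joins the fragments, went from 1017 and 1128 to 779.9 and 751 on confluence in VEC-null cells and from 887 and 593 to 1285 and 1184 in VEC-positive cells. The confluent VEC-positive arrays were above all others, and the difference of responses was 1.19 (SE 0.23, adjusted p = 0.004). This was lost without copy 2 of the sparse VEC-positive arrays (0.91), the lower of that pair. Rpa1, the large subunit of the single-strand binding protein RPA, went from 3509.9 and 3322 to 1995 and 2155 on confluence in VEC-null cells and from 2711 and 2814 to 3503 and 3166 in VEC-positive cells. Confluent VEC-null arrays were below all others, and the difference of 0.97 (SE 0.12, adjusted p = 0.00045) was on p alone. Leaving out copy 2 of the sparse VEC-null, of the confluent VEC-null or of the confluent VEC-positive arrays took it to between 1.01 and 1.04, and it then passed. The smaller subunits Rpa2 and Rpa3 had differences of 0.52 and -0.12, neither of which passed.

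Of the 3 nucleotide supply genes kept, Rrm1 and Rrm2 passed in the difference of responses. Rrm1, the large subunit of ribonucleotide reductase, went from 4273 and 4009 to 2384 and 2316 on confluence in VEC-null cells and from 2395 and 2113 to 3024 and 3276 in VEC-positive cells. Rrm2, the small subunit, went from 4726 and 4619.7 to 2734 and 2525 on confluence in VEC-null cells and from 2826 and 3058 to 3525 and 3352 in VEC-positive cells. In both genes the sparse VEC-null arrays were above all others, and for Rrm2 the confluent VEC-null arrays were below all others. The difference of responses was 1.28 (SE 0.13, adjusted p = 0.00013) for Rrm1 and 1.04 (SE 0.12, adjusted p = 0.00023) for Rrm2. The Rrm2 call was lost, at 0.98, without copy 2 of the confluent VEC-null or copy 1 of the sparse VEC-positive arrays. Tk1, thymidine kinase of the salvage route, had 0.81 (SE 0.21, adjusted p = 0.016) on p alone, and 1.04, which passed, without copy 2 of the confluent VEC-null arrays. Dut was below the level filter and Tyms was not analysed here.

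In the G1/S group, Chek1 passed in the difference of responses and Ccne1 did not. Chek1, the kinase that holds the cycle when forks stall, went from 795 and 815 to 393 and 319 on confluence in VEC-null cells and from 305 and 336 to 365 and 424 in VEC-positive cells. Its sparse VEC-null arrays stood above the other 6, which lay between 305 and 424. It fell in VEC-null cells by 1.08 on the log2 scale (SE 0.14, adjusted p = 0.00013), and the responses differed by 1.34 (SE 0.19, adjusted p = 0.00091). Without copy 2 of the confluent VEC-null arrays its VEC-null change was -0.95 and did not pass. Ccne1, the cyclin that drives entry into S phase, went from 462 and 651 to 924 and 759 on confluence in VEC-null cells and from 584 and 709 to 903 and 954 in VEC-positive cells. It was higher on confluence on p alone in both lines, by 0.57 (SE 0.17, adjusted p = 0.018) and 0.50 (SE 0.17, adjusted p = 0.033), and was the 1 gene of 39 with its lowest mean in sparse VEC-null cells, against 26.2% of all probe sets. E2f1, a transcription factor of the G1/S genes, had a difference of 0.94 (SE 0.24, adjusted p = 0.016) on p alone, which passed at 1.02 without copy 2 of the sparse VEC-null and at 1.14 without copy 2 of the confluent VEC-positive arrays. A second E2f1 probe set gave 0.63 and did not pass.

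The chromatin and histone supply group held the gene with the steepest rise in VEC-positive cells, Slbp. The group's median change there was 0.42, against 0.50 for the 39 genes. Slbp, which binds the stem-loop of replication-dependent histone mRNAs, went from 1080 and 1026 to 949 and 929 on confluence in VEC-null cells and from 300.2 and 329.5 to 839 and 854 in VEC-positive cells. The sparse VEC-positive arrays were below all others, and the other 6 lay between 839 and 1080. It rose in VEC-positive cells by 1.30 (SE 0.10, adjusted p = 6e-06), its VEC-null change was -0.16 (SE 0.10, adjusted p = 0.24), and the responses differed by 1.45 (SE 0.14, adjusted p = 0.00013). Uhrf1, which carries DNA methylation across replication, went from 2152 and 2351 to 1269 and 1127 on confluence in VEC-null cells and from 1282 and 1329 to 1671 and 1507 in VEC-positive cells. Confluent VEC-null arrays were below and sparse VEC-null arrays above all others, with a difference of responses of 1.16 (SE 0.14, adjusted p = 0.00039). Chaf1b, a subunit of the histone chaperone CAF-1, went from 737 and 735 to 516 and 534 on confluence in VEC-null cells and from 364 and 413 to 531 and 678 in VEC-positive cells. The confluent arrays of its 2 lines overlapped, and the difference of 1.02 (SE 0.19, adjusted p = 0.0034) was lost without copy 1 of the confluent VEC-null (1.00, just under the limit), copy 1 of the sparse VEC-positive (0.94) or copy 2 of the confluent VEC-positive arrays (0.86). Chaf1a, the other CAF-1 subunit described, had -0.16 (SE 0.18, adjusted p = 0.55), with all 8 arrays between 329.8 and 478.6.

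Leaving out copy 1 of the confluent VEC-null arrays of chip A raised 2 of the counts by more than 1.5 times. The genes that fell on confluence in VEC-null cells became 7 in place of 4, with Mcm3 (-1.06), Mcm5 (-1.14), Orc2 (-1.24) and Rfc4 (-1.06) gained and Orc1 lost, and those higher in confluent VEC-positive cells became 2, with Mcm5 (1.15) gained. Mcm5 lies on chromosome 8, where the median line difference of 722 probe sets was 0.27 in confluent cells. The 8 kept genes on chromosome 5, Mcm7, Cdc7, Rfc1, Rfc2, Rfc3, Rfc5, Pole and Slbp, had a median line difference of -1.27 in sparse cells, against -0.84 for the other 31, and the median of 823 probe sets on that chromosome was -0.36. In confluent cells the 2 medians were -0.18 and 0.23, and the chromosome's was -0.33. The difference of density responses did not share this, with 1.00 on chromosome 5 against 1.04 elsewhere and 0.01 over the chromosome. With the median of each chromosome taken out, Mcm7 (-0.84), Rfc1 (-0.89) and Mcm4 (-0.95) no longer passed in sparse cells, and Mcm7 (0.96), Rrm2 (0.96) and Chaf1b (0.95) no longer passed in the difference of responses. Its 21 calls before that were 4 of the 8 and 17 of the 31. With the copies averaged and the 4 cRNA samples as units, the effect of VEC averaged over density passed for 0 of the 39 genes (4 at an unadjusted p below 0.05, limma) and that of density averaged over lines for 0 (1 at an unadjusted p below 0.05). Of all probe sets, the same fit called 2.24% and 9.9%, and no test of the difference of responses exists in it. The shares at the unadjusted limit were not computed. The fit has 1 residual degree of freedom, and its residual is the difference of responses itself. Genes in which that difference is large could thus hardly pass, and these counts of 0 decide nothing about them.

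Other genes of replication and repair gave the same direction with 1 exception among those that passed in the difference of responses. Of all probe sets, 5.89% passed as higher and 6.31% as lower in that comparison. Of 35 other replication factors kept, the density responses differed as higher for 10 and lower for 1, with a median of 0.74. They included Gins1 (2.29), a subunit of the active helicase, Hells (1.79), a chromatin remodeller, and Top2a (1.70), the topoisomerase that untangles sister DNA, and the lower one was Pold4 (-1.92), a small subunit of polymerase delta. Gins1 went from 453 and 449 to 46.7 and 42.8 on confluence in VEC-null cells and from 135 and 222 to 146 and 167 in VEC-positive cells. In sparse cells 10 of these 35 were lower in VEC-positive cells and 1 was higher, against 4.27% and 5.43% of all probe sets. Of 14 S phase checkpoint and repair genes, 6 were higher in the difference of responses and 0 lower, with a median of 0.90, among them Chek2 (1.46) and Exo1 (1.40).

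Genes of mitosis also differed in their density response. Of 25 kept, 14 were higher and 0 lower in the difference, against 5.89% and 6.31% of all probe sets. The 14 were led by Bub1 (1.93), a spindle checkpoint kinase, and Nusap1 (1.74), a spindle protein. The median of the 25 was 1.07. Mki67, the proliferation antigen, went from 2205 and 2018 to 1331 and 1193 on confluence in VEC-null cells and from 1282 and 1250.3 to 2213 and 1889 in VEC-positive cells. Its confluent VEC-positive and sparse VEC-null arrays overlapped. In sparse cells 0 of the 25 were lower or higher in VEC-positive cells, against 4.27% and 5.43% of all probe sets, with a median of -0.50. On p alone 17 were lower and 1 higher, against 20.5% and 18.2%. At an unadjusted p below 0.05 (limma) 18 were lower and 1 higher, with no share of all probe sets computed. In confluent cells 2 were higher, against 4.29% of all probe sets, and 18 were on p alone, against 16.2%, with a median of 0.63. Whether mitosis and replication genes differ in this was not tested.

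**Figure D4:**
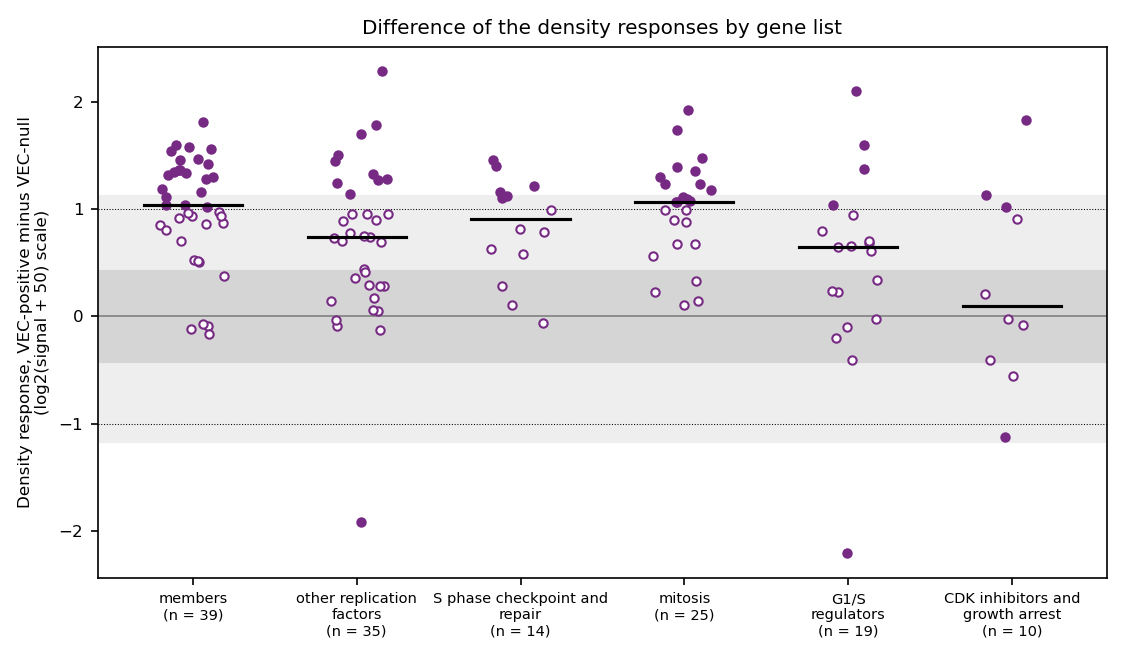
Difference of density responses, VEC-positive minus VEC-null on the log2(signal + 50) scale, with 1 point per gene for the 39 replication genes and 5 related lists, filled where the difference passed, with the list median as a bar. Grey bands span the 5th to 95th (light) and 25th to 75th (dark) percentiles of all probe sets kept, -1.17 to 1.13 and -0.42 to 0.43, and the medians of the replication and mitosis lists are 1.04 and 1.07.

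The regulators of S phase entry did not move as 1 group. Of 19 other G1/S regulators kept, 4 were higher and 1 lower in the difference of responses, with a median of 0.65. The shares of all probe sets were 5.89% and 6.31%. Ccna2, the cyclin of S phase, went from 3046 and 2783 to 1481 and 1408 on confluence in VEC-null cells and from 1909.7 and 1960.3 to 2561 and 2533 in VEC-positive cells, a difference of 1.37 (SE 0.12, adjusted p = 6.6e-05). Mybl2, a factor of the later cycle genes, went from 1045 and 883 to 248 and 223 on confluence in VEC-null cells and from 219 and 309.9 to 313 and 341 in VEC-positive cells. In both, the sparse VEC-null arrays were above all others. Ccnd1, cyclin D1, went from 3909 and 3761 to 908 and 955 on confluence in VEC-null cells and from 9169 and 8901 to 2558 and 2718 in VEC-positive cells. It fell on confluence in both lines and was higher in VEC-positive cells at both densities, and its responses differed by 0.23 (SE 0.11, adjusted p = 0.16), which did not pass. Ccnd2, cyclin D2, went from 262 and 233 to 829 and 653 on confluence in VEC-null cells and from 3599 and 4488 to 2459 and 2106 in VEC-positive cells, with a difference of -2.21 (SE 0.21, adjusted p = 9.5e-05). Cdk2, the kinase partner of cyclins E and A, went from 523 and 651 to 939 and 851 on confluence in VEC-null cells and from 649.7 and 576 to 1563 and 1451 in VEC-positive cells. It rose on confluence in VEC-positive cells by 1.23 (SE 0.13, adjusted p = 3.5e-05).

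Of the 10 CDK inhibitor and growth arrest genes kept, 3 were higher and 1 lower in the difference of responses, with a median of 0.09. The shares of all probe sets there were 5.89% and 6.31%. In sparse cells 4 of the 10 were higher and 1 lower in VEC-positive than in VEC-null cells, against 5.43% and 4.27%. Cdkn1a, the inhibitor p21, went from 608 and 613 to 418 and 485 on confluence in VEC-null cells and from 3335 and 3382 to 4779 and 4826 in VEC-positive cells. All 4 VEC-positive arrays were above all 4 VEC-null arrays, with a line difference of 2.37 in sparse and 3.28 in confluent cells. A second Cdkn1a probe set was higher in VEC-positive cells by 1.81 when sparse and 1.03 when confluent, and its difference of responses was -0.78 where the first gave 0.91, both on p alone, so the 2 probe sets disagree on that difference. Cdkn2c, an inhibitor of the cyclin D kinases, had the largest difference of responses, at 1.83, and Cdkn2b, another of that family, the lowest, at -1.13.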

How the data were processed

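Values were linear intensities, 1 MAS5 signal per probe set and array, which the authors computed with default parameters and scaled to 500 per array, per the labels. Leaving out 2% at each end, the trimmed means of the deposited columns lay between 500.12 and 500.31. The median normalisation that the series text names was not seen in the values. The MAS5 version and detection calls were not used here, and 0 columns belonged to other samples.

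Of 24833 probe sets other than controls (66 controls per chip), 21414 had 1 gene symbol in the platform annotation, 574 had several and 2845 none, and only the first were named. Signals were taken to log2(signal + 50). A probe set was kept where at least 1 group mean was above the chip median (160.3 for chip A, 231.0 for chip B), and 6997 and 7304 were left. The 4 groups of a chip were fitted together with limma 3.58.1 in R 4.3.3, with a variance trend, 4 residual degrees of freedom and 5.65 (chip A) and 5.62 (chip B) prior ones. Benjamini-Hochberg adjustment ran over the 14301 kept probe sets. The 5 comparisons were the lines at each density, the densities in each line, and the difference of density responses. A gene passed where the change was 1 or more with an adjusted p below 0.05. The fit was also run on simulated data with independent noise and added changes well above the limit. That run covers neither changes near the limit nor the spread between cultures. The number of arrays limits the precision.

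Signals are given array by array for the 24 genes that passed in at least 1 comparison and for the gene with the highest mean signal of each role group (4 more). The other 11 are given by values and counts. From the related lists, at most 4 passing genes per list and comparison were named, beside Cdkn1a, Ccnd1, Ccna2, Cdk2 and Cdh5. The genes, lists and tests were chosen with earlier results of these data known. Alternatives changed the offset, filter, normalisation, variance prior, probe set, adjustment, unit and replicates.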

Additional observations from a re-analysis of the deposited data

Results flagged for a closer look

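The 2 lines differed in their response to density, tested as an interaction in the limma fit, for 21 of the 39 genes kept, and each is given here on the log2(signal + 50) scale as VEC-positive minus VEC-null. For the helicase genes it was 1.11 for Mcm2, 1.60 for Mcm3, 1.30 for Mcm4, 1.47 for Mcm5 and 1.04 for Mcm7. For the origin genes it was 1.58 for Orc1, 1.54 for Cdc6, 1.42 for Cdt1, 1.32 for Cdc45 and 1.33 for Cdc7. The clamp loader gene Rfc5 had 1.36, the polymerase and primase genes Pola1 and Prim1 1.81 and 1.37, and the lagging strand genes Fen1 and Lig1 1.56 and 1.19. Rrm1 and Rrm2 of ribonucleotide reductase had 1.28 and 1.04, and the checkpoint kinase Chek1 1.34. The chromatin and histone genes Uhrf1, Slbp and Chaf1b had 1.16, 1.45 and 1.02. Groups of 2 array copies were too small for a search for outlying arrays. Each difference compares 4 cRNA samples, 1 per condition, so a difference between these samples and one between the conditions cannot be told apart.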

How the results depend on the processing

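The 42 calls on the 39 genes kept their direction under all 29 alternatives that gave a value, with 0 reversals, and 1134 of the 1190 recomputed values stayed on their side of the threshold. Part of the 1134 was fixed in advance. All 42 calls were on chip A, so leaving out a chip B copy could not change their size. Counting any probe set of a gene could lose no call. The counts of genes passing were 1 (lines, confluent), 14 (lines, sparse), 2 (density, VEC-positive), 4 (density, VEC-null) and 21 (difference of responses). With copies averaged in an additive fit, the first 4 became 0, and no value for the fifth exists. On p alone they were 12, 31, 28, 33 and 28. Of these 132 changes on p alone, 31 reversed direction in the additive fit and 1 in another setting. With an offset of 200, the density counts were 1 and 2 and that of the difference was 15. Centring each chromosome gave 12 for the lines when sparse, 11 of them among the 14, 18 for the difference of responses, all among the 21, and 1 for density in VEC-positive cells, where Fen1 fell to 0.99. For the lines when confluent, a level filter at the 75th percentile left 0, since Prim1 was not kept, and counting any probe set of a gene gave 2. The additive fit averages each effect over the other factor, so its values are another quantity, and its residual is the difference of responses.

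Leaving out 1 array copy gave 1 to 2, 14 to 15, 2 to 3, 3 to 7 and 20 to 24 genes. Copies with the same number did not deviate together (correlations of their deviations from -0.0573 to 0.0797), so the numbers pair nothing, and a replicate block left the counts at 1, 14, 2, 4 and 21. Probe sets below the level filter limit what can be said of Mcm6, Dbf4, Dut and Ccne2. Among the second probe sets below it, the VEC-null mean was higher on confluence for Mcm5, Rfc5, Pold1 and Tk1. It was lower for Orc2, Cdc7, Rpa1, Lig1 and Rrm1.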
